A study of Danio rerio with 4 samples.

Results

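Genes of glucose production and of the response to glucocorticoid hormones were followed in whole zebrafish larvae (Danio rerio) exposed to airborne smog particles. They are the 10 genes, of 32520 distinct gene IDs in the deposited table, whose listed symbol is pck1, pck2, g6pca.1, g6pca.2, pdk2b, igfbp1a, igfbp1b, nr3c1, fkbp5 or tsc22d3, and each symbol matched 1 gene ID. All 10 passed the minimum level for testing, a mean of 1 TPM over the 4 libraries. TPM is a gene's share of the transcripts of a library: reads are taken per length and set to 1 total for all libraries, which lets levels of different genes be compared.

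The study sequenced 2 libraries of larvae exposed to PM2.5, the fine fraction of airborne particles, and 2 libraries of untreated control larvae. The particles, 12000000 of them, were present between 72 and 120 hours after fertilization, and RNA of whole larvae came from 5 to 7 animals in each group. No strain or allele is given in the sources used here, and they do not state whether a group's libraries are separate clutches or exposures. The p-values then cover no more than the spread between 2 libraries of a group, possibly technical.

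Glucose is made from lactate and amino acids mainly in the liver and kidney, where phosphoenolpyruvate carboxykinase (pck genes) opens the pathway from oxaloacetate and glucose-6-phosphatase (g6pc genes) releases free glucose at its end. Fasting and glucocorticoids raise these enzymes and insulin lowers them. Cortisol, the glucocorticoid of fish, acts through the glucocorticoid receptor (nr3c1), a transcription factor held ready for hormone by HSP90 chaperones. Fkbp5 and tsc22d3 are widely used readouts of that receptor, and igfbp1 and pyruvate dehydrogenase kinase genes are known to rise in fasting in mammals.

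The glucose production and fasting genes were mostly lower in exposed larvae, while the receptor and its readouts passed no test. Of the 10 genes, 5 were lower (pdk2b, g6pca.2, igfbp1b, pck1 and igfbp1a) and 1, pck2, was higher in PM2.5 larvae at an adjusted p under 0.05 (limma on log2(TPM + 1), Benjamini-Hochberg adjustment over all tested genes). Over all 20874 tested genes 2.62% were lower, 8.46% higher and 11.1% past the threshold in either direction. The PM2.5 and control libraries did not overlap for 9 of the 10 genes, against 56.3% of all tested genes. For 8 of these 9 both exposed libraries were below both controls, against 19.7% of all tested genes, and for 1 they were above, against 36.6%. The 10 genes had a median log2 fold change of -0.44, against 0.07 over all tested genes. They were chosen with earlier results of these data known, so these contrasts with all tested genes are a description only. When 1 library was left out, fewer of the 10 passed the threshold, and fewer of all tested genes did too. Such a fit leaves 1 library in a group. Over these fits the log2 fold change was -1.31 to -1.25 for pdk2b, -0.47 to -0.44 for pck1 and -0.46 to -0.39 for igfbp1a. It was -0.84 to -0.62 for g6pca.2, -0.87 to -0.49 for igfbp1b and 0.47 to 0.71 for pck2. In RNA of whole larvae, fewer cells of a type and less RNA per cell cannot be told apart.

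**Figure D1:**
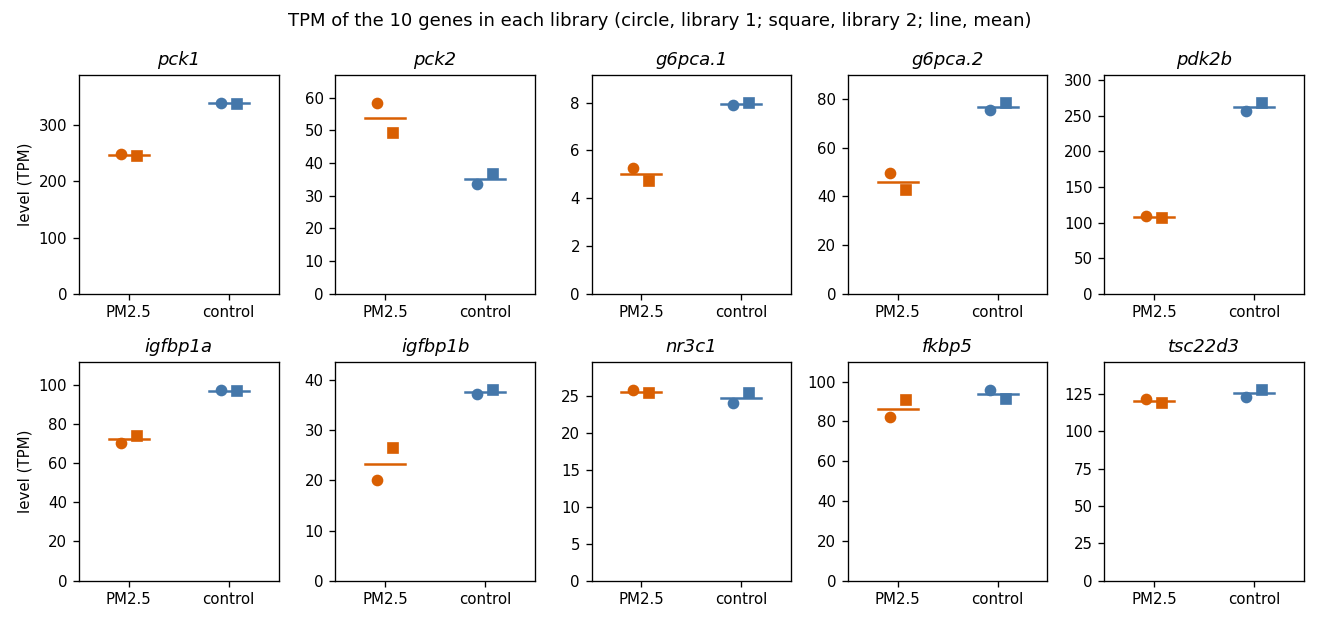
Level in TPM (vertical axes, each starting at 0) of the 10 genes in the PM2.5 libraries and the control libraries; circles are library 1, squares library 2 and lines the mean of 2. Both exposed libraries sit below both controls for pck1, g6pca.1, g6pca.2, pdk2b, igfbp1a, igfbp1b, fkbp5 and tsc22d3, above them for pck2; for nr3c1 PM2.5 library 1 is above both controls and PM2.5 library 2 lies between them.

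The depths of both groups overlapped. The read numbers recovered from the steps between TPM values came to about 24181800 and 15513130 in the PM2.5 libraries and to 19569395 and 15180225 in the control libraries. Across genes (no independent replicates), log2(TPM + 1) correlated at 0.969 between the PM2.5 libraries, 0.979 between the controls and 0.934 to 0.951 across groups. The share of 2.62% lower holds for TPM as deposited, with 547 of 20874 tested genes lower. It was 853 of 20874 with TMM-type rescaling, 962 of 20874 with quantile normalization and 1093 of 20795 in a limma voom fit on the recovered reads. Higher genes made up 76.4% of all genes past the threshold as deposited, 59.1% with TMM-type rescaling and 57.9% with quantile normalization. The last of these shifted the overall median log2 fold change by -0.11, and changes of that size among the 10 genes are read against it.

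Phosphoenolpyruvate carboxykinase is encoded by a pair of genes that moved in opposite directions. The cytosolic enzyme gene pck1 (ENSDARG00000013522, chromosome 6, GRCz11) had 249 and 245 TPM in the PM2.5 libraries, against 339 and 338 TPM in the controls. Both exposed libraries were lower, and the controls differed from each other by less than their counting error of 0.981% and 1.13% (10392 and 7889 reads). The level fell to 0.729 of the control mean, a log2 fold change of -0.45 (SE 0.05, 95% confidence interval -0.56 to -0.34, limma adjusted p = 0.00264). Its call was lost without control library 1 (log2 fold change -0.45, limma adjusted p = 0.0539).

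The mitochondrial enzyme gene pck2 (ENSDARG00000020956, chromosome 24) had 58.3 and 49.1 TPM in the PM2.5 libraries, against 33.6 and 36.7 TPM in the controls. Both exposed libraries were higher, and the mean was 1.53 times that of the controls (53.7 ± 6.46 against 35.2 ± 2.17 TPM, SD, n = 2 each). The log2 fold change was 0.59 (SE 0.11, 95% confidence interval 0.33 to 0.86, limma adjusted p = 0.0224). This call was lost without PM2.5 library 1 (0.47, limma adjusted p = 0.132), without control library 1 (0.53, 0.173) and without control library 2 (0.65, 0.117). The level of pck1 was 4.27 and 4.98 times that of pck2 in the exposed libraries, against 10.1 and 9.22 times in the controls.

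Glucose-6-phosphatase, which frees glucose from its phosphate in the endoplasmic reticulum, is represented by g6pca.1 and g6pca.2. Both lie on chromosome 12 with 3 protein-coding genes between them in the RefSeq gene order of the assembly GRCz12tu, which lists them as g6pc1a.1 and g6pc1a.2. Reads shared between such copies make their values uncertain, since how multi-mapping reads were handled is not stated in the labels. The more abundant copy, g6pca.2 (ENSDARG00000013721), had 49.5 and 42.4 TPM in the PM2.5 libraries, against 75.6 and 78.2 TPM in the controls. It fell to 0.598 of the control mean (log2 fold change -0.73, SE 0.09, limma adjusted p = 0.00667). This did not hold without control library 1 (-0.76, limma adjusted p = 0.0842) or without control library 2 (-0.71, 0.0866).

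The copy g6pca.1 (ENSDARG00000031616) was the lowest of the 10 genes, at 5.27 and 4.73 TPM in the PM2.5 libraries, against 7.91 and 7.97 TPM in the controls. Its groups did not overlap, but its values rested on few reads, 95 and 54 in the exposed libraries and 115 and 88 in the controls. Counting alone gives an error of 10.3% and 13.6% there, and of 9.33% and 10.7% in the controls. The log2 fold change of -0.58 (95% confidence interval -0.97 to -0.19) did not pass (limma adjusted p = 0.0745), and it passed after quantile normalization (-0.70, limma adjusted p = 0.0483). The level of g6pca.1 was 0.106 and 0.111 of that of g6pca.2 in the exposed libraries and 0.105 and 0.102 of it in the controls.

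The largest change among the 10 was in pdk2b (ENSDARG00000059054, chromosome 19), a pyruvate dehydrogenase kinase gene. The kinase phosphorylates and switches off pyruvate dehydrogenase, which spares pyruvate from oxidation. It had 109 and 106 TPM in the PM2.5 libraries, against 257 and 267 TPM in the controls. The exposed mean was 0.410 of the control mean (107 ± 2.28 against 262 ± 7.49 TPM, SD, n = 2 each), far beyond the spread within either group. The log2 fold change was -1.28 (SE 0.06, 95% confidence interval -1.41 to -1.14, limma adjusted p = 0.000140), and only 0.613% of all tested genes had a lower one. Of the 6 genes past the threshold pdk2b alone kept its call without any 1 of the 4 libraries (-1.31 to -1.25, limma adjusted p 0.00891 to 0.0214).

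Its close relative pdk2a was at 81.6 and 79.4 TPM in the PM2.5 libraries, against 81.2 and 81.3 TPM in the controls (log2 fold change -0.01). The level of pdk2b was therefore 1.34 and 1.33 times that of pdk2a in exposed larvae, against 3.16 and 3.29 times in controls. The groups did not overlap in the log2 ratio of pdk2b to pdk2a, which differed by -1.27 between them. Nor did they overlap for the other 3 pairs of related genes compared, with differences of -1.05 for pck1 to pck2, 0.16 for g6pca.1 to g6pca.2 and 0.26 for igfbp1a to igfbp1b. The share of other gene pairs without overlap was not computed. The difference for g6pca.1 to g6pca.2 depended on the pseudocount, at 0.09 with 0.1 TPM and 0.32 with 5 TPM, and g6pca.1 had few reads. An exact two-sided permutation test of such a ratio gave p = 0.333 for each of the 4 pairs (adjusted p = 0.333), the smallest value that 2 against 2 libraries allow.

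**Figure D2:**
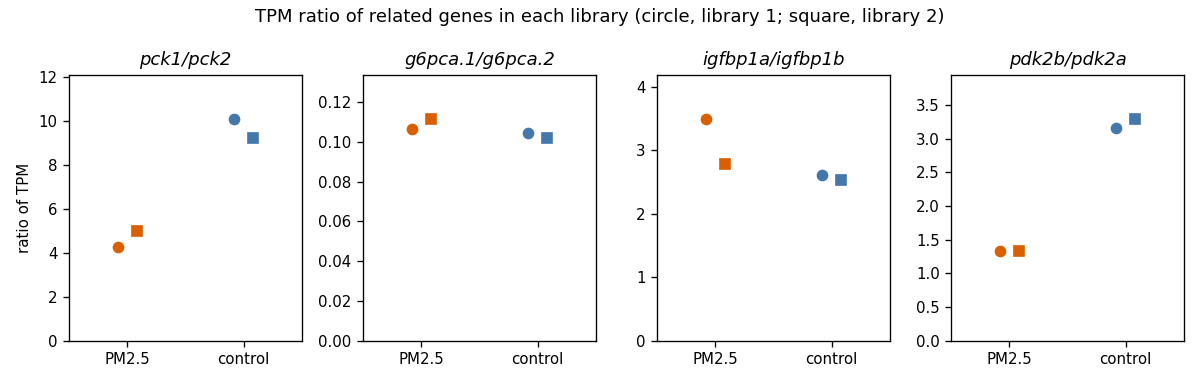
Ratio of the TPM of 2 related genes (vertical axes from 0) in each PM2.5 and control library; circles are library 1 and squares library 2. The ratios of pck1 to pck2 and of pdk2b to pdk2a are 4.27 to 4.98 and 1.33 to 1.34 in exposed larvae, against 9.22 to 10.1 and 3.16 to 3.29 in controls.

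The insulin-like growth factor binding protein 1 genes encode secreted proteins that bind insulin-like growth factors in blood. The copy igfbp1a (ENSDARG00000099351, chromosome 20) had 70.3 and 73.7 TPM in the PM2.5 libraries, against 97.2 and 96.5 TPM in the controls. It fell to 0.744 of the control mean, a log2 fold change of -0.42 (SE 0.07, limma adjusted p = 0.0130). Its neighbour in the GRCz12tu gene order, igfbp3, another binding protein gene, was at 9.86 and 9.81 TPM in the PM2.5 libraries and at 7.95 and 11.5 TPM in the controls. The groups overlapped for igfbp3.

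The second copy, igfbp1b (ENSDARG00000038666, chromosome 2), had 20.1 and 26.4 TPM in the PM2.5 libraries, against 37.3 and 38.1 TPM in the controls. The exposed libraries were both lower and differed more from each other than the controls did (23.3 ± 4.45 against 37.7 ± 0.558 TPM, SD, n = 2 each). Its level was 0.619 of the control mean (log2 fold change -0.68, SE 0.14, limma adjusted p = 0.0312). Without any 1 of the 4 libraries igfbp1a did not pass (limma adjusted p 0.0567 to 0.122). The call of igfbp1b held without PM2.5 library 2 (-0.87, limma adjusted p = 0.0360) and was lost without PM2.5 library 1 (-0.49, 0.108), without control library 1 (-0.70, 0.192), without control library 2 (-0.67, 0.203) and with no filter on low values (-0.68, 0.0572).

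The glucocorticoid receptor gene nr3c1 (ENSDARG00000025032, chromosome 14) had 25.8 and 25.4 TPM in the PM2.5 libraries, against 24.1 and 25.5 TPM in the controls. The groups overlapped, and the log2 fold change was 0.05 (95% confidence interval -0.19 to 0.28, limma adjusted p = 0.806). Its sign turned with TMM-type rescaling (-0.05) and with quantile normalization (-0.07).

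The co-chaperone gene fkbp5 (ENSDARG00000028396, chromosome 6), which the receptor induces and whose product lowers the receptor's affinity for hormone, had 82.2 and 90.7 TPM in the PM2.5 libraries, against 95.7 and 91.4 TPM in the controls. Its log2 fold change was -0.11 (95% confidence interval -0.30 to 0.07, limma adjusted p = 0.392). The leucine zipper gene tsc22d3 (ENSDARG00000075666, chromosome 14), known in mammals as the glucocorticoid-induced leucine zipper, had 122 and 119 TPM in the PM2.5 libraries, against 123 and 128 TPM in the controls. Its log2 fold change was -0.06 (95% confidence interval -0.20 to 0.09, limma adjusted p = 0.583). For both genes the exposed libraries were below the controls by a margin that did not pass. The size of the margin depended on the scaling. With TMM-type rescaling the log2 fold changes were -0.22 for fkbp5 and -0.16 for tsc22d3 (limma adjusted p = 0.166 and 0.211). With quantile normalization they were -0.25 and -0.18 (limma adjusted p = 0.0914 and 0.0873).

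**Figure D3:**
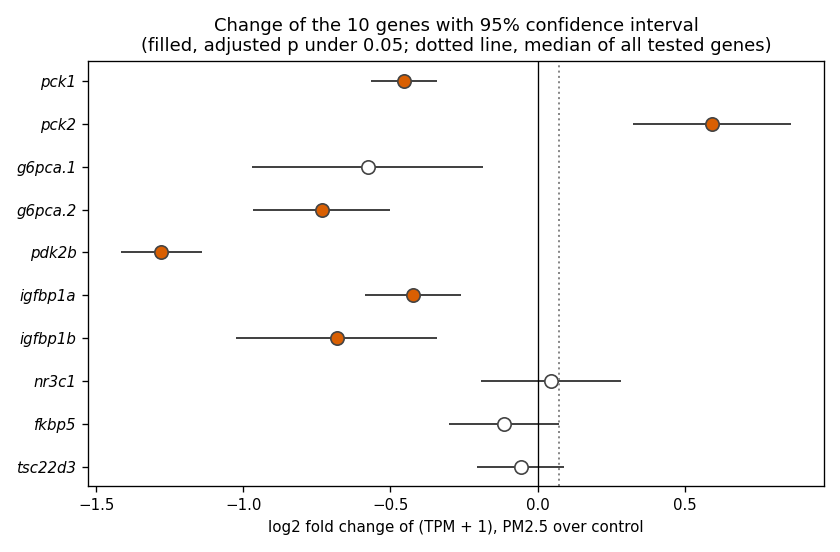
Log2 fold change of (TPM + 1), PM2.5 over control, of the 10 genes (points) with the 95% confidence interval (lines); filled points passed an adjusted p of 0.05 and the dotted line is the median of all tested genes, 0.07. The interval lies below 0 for pck1, g6pca.1, g6pca.2, pdk2b, igfbp1a and igfbp1b, above 0 for pck2, and spans 0 for nr3c1, fkbp5 and tsc22d3.

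The 10 genes differed widely in level, and their order was not the same in both groups. In exposed larvae the order from high to low was pck1 (mean 247 TPM), tsc22d3 (120.5), pdk2b (107), fkbp5 (86.4), igfbp1a (72.0), pck2 (53.7), g6pca.2 (46.0), nr3c1 (25.6), igfbp1b (23.3) and g6pca.1 (5.00). Among neighbours in that order pck2 and g6pca.2 overlapped, as did nr3c1 and igfbp1b. In control larvae it was pck1 (339), pdk2b (262), tsc22d3 (125), igfbp1a (96.9), fkbp5 (93.5), g6pca.2 (76.9), igfbp1b (37.7), pck2 (35.2), nr3c1 (24.8) and g6pca.1 (7.94). No neighbours overlapped there.

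Other enzymes and transporters of gluconeogenesis were also mixed in direction. Of 21 tested gene IDs of a list that holds the pck and g6pca genes, 5 (23.8%) were lower and 2 (9.52%) higher. These counts include pck1 and g6pca.2 as lower and pck2 as higher. The shares of all tested genes were 2.62% and 8.46%. The list had a median log2 fold change of -0.16 against 0.07 over all tested genes. The cytosolic malate dehydrogenase gene mdh1ab fell to 10.46 and 11.01 TPM in exposed larvae, against 27.4 and 24.1 TPM in controls (log2 fold change -1.19, limma adjusted p = 0.00281). Its more abundant relative mdh1aa, at 410 and 398 TPM in exposed larvae and 449 and 438 TPM in controls, did not pass (-0.13, limma adjusted p = 0.109).

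The glucose-6-phosphate transporter gene slc37a4b carries the substrate of glucose-6-phosphatase into the endoplasmic reticulum. Of 2 gene IDs with that symbol, ENSDARG00000077180 fell to 13.6 TPM in each PM2.5 library, against 18.9 and 20.1 TPM in the controls (log2 fold change -0.49, limma adjusted p = 0.0431). The other, ENSDARG00000093531, was at 1.54 and 5.00 TPM in the PM2.5 libraries, against 4.29 and 4.39 TPM in the controls. Its groups overlapped and it did not pass (-0.45, limma adjusted p = 0.529). The pyruvate carboxylase gene pcxa, whose product makes oxaloacetate from pyruvate, rose to 29.95 and 31.50 TPM in exposed larvae, against 21.2 and 23.4 TPM in controls (0.45, limma adjusted p = 0.0443). The fructose bisphosphatase gene fbp1a, at 45.7 and 43.4 TPM in exposed larvae and 35.5 and 33.7 TPM in controls, did not pass (0.35, limma adjusted p = 0.0510). Its more abundant relative fbp1b (-0.06, groups overlapping) and fbp2 (-0.71, both exposed libraries lower) did not pass either. Nor did pcxb (0.03, groups overlapping) and slc37a4a (0.24, both exposed libraries higher), the relatives of pcxa and slc37a4b. These relatives were named after their values were seen. The number of list genes past the threshold was 3 without PM2.5 library 1, 1 without control library 1 and 3 without control library 2, against 7 with all libraries.

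**Figure D4:**
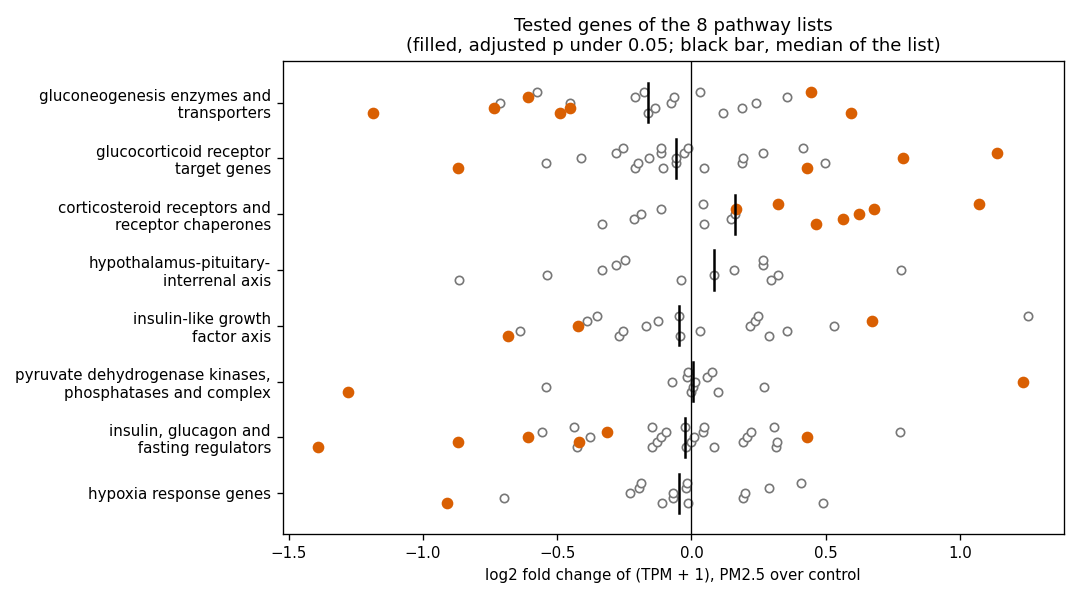
Log2 fold change of (TPM + 1), PM2.5 over control, of each tested gene in 8 pathway lists; filled points passed an adjusted p of 0.05 and black bars are list medians. In the gluconeogenesis list 5 genes passed as lower and 2 as higher, and in the receptor chaperone list 7 passed as higher.

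Of 24 tested glucocorticoid target genes, which include fkbp5 and tsc22d3, 3 (12.5%) were higher and 1 (4.17%) lower. These shares are near the 8.46% and 2.62% of all tested genes. The 24 genes had a median log2 fold change of -0.06. The genes that rose were nfkbiaa (41.4 and 36.3 TPM in PM2.5 larvae, against 19.4 and 15.0 TPM in controls, log2 fold change 1.14), nfkbiab (31.9 and 35.5 TPM in PM2.5 larvae, against 18.3 and 19.9 TPM in controls, 0.79) and the transcription factor gene cebpb (151 and 150.0 TPM in PM2.5 larvae, against 109.6 and 113 TPM in controls, 0.43). Their limma adjusted p-values were 0.00656, 0.00806 and 0.00738. Both nfkbia genes encode inhibitors of NF-kB and are also induced by NF-kB itself, and cebpb is also an inflammatory gene. What raised these genes here was not tested. The insulin receptor substrate gene irs2a fell to 11.2 and 12.9 TPM in exposed larvae, against 20.5 and 25.4 TPM in controls (-0.87, limma adjusted p = 0.0175).

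The other 20 target genes did not pass, and those named here were chosen after their values were seen. Among them sgk1 (log2 fold change -0.06), klf9 (-0.16) and per1b (-0.11) had limma adjusted p-values of 0.607, 0.255 and 0.520. Larger differences without overlap were seen in per1a (0.50), fosl2 (0.42) and dusp1 (-0.41), with limma adjusted p-values of 0.0790, 0.0621 and 0.0525. The number of target genes past the threshold was 7 with a mean of at least 5 TPM and 8 in a limma voom fit on the recovered reads. It was 0 without PM2.5 library 1, without PM2.5 library 2 and without control library 2, and 1 without control library 1.

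Some chaperones listed with the steroid receptors rose, and the receptor genes themselves did not pass. Whether the rise bears on the receptors was not tested. Of 15 tested genes of the receptors, their chaperones and coactivators, 7 (46.7%) were higher, against 8.46% of all tested genes, and none was lower in limma (1 lower at an unadjusted p under 0.05 and 1 lower in the voom fit). The HSP90 gene hsp90aa1.2 rose to 64.7 and 68.4 TPM in PM2.5 larvae, against 32.9 and 29.4 TPM in controls (log2 fold change 1.07, limma adjusted p = 0.00152). The p23 co-chaperone gene ptges3b rose to 84.1 and 76.6 TPM, against 49.9 and 49.5 TPM in controls (0.68). The immunophilin gene fkbp4, whose product works against that of fkbp5 on the receptor, rose to 87.8 and 84.4 TPM, against 58.7 and 56.8 TPM in controls (0.57, limma adjusted p = 0.00561).

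The remaining rises were hsp90aa1.1 (log2 fold change 0.63), the Hop gene stip1 (0.46), hspa8 (0.32) and hsp90ab1 (0.17). The co-chaperone genes ptges3a (0.16, limma adjusted p = 0.314) and bag1 (0.15, 0.505), named after their values were seen, did not pass, nor did fkbp5, which the list also holds. The mineralocorticoid receptor gene nr3c2, at 4.71 and 8.01 TPM in exposed larvae and 7.06 and 7.26 TPM in controls, did not pass (-0.19, limma adjusted p = 0.673). After TMM-type rescaling 4 genes of this list passed, all higher. Without PM2.5 library 1, control library 1 or control library 2 it was 1, and without PM2.5 library 2 it was 4.

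Of 23 gene IDs of the hormone axis that controls cortisol, from the hypothalamus to the steroid-making interrenal gland, the adrenal counterpart of fish, 13 reached the minimum for testing. In limma none passed, and 13 genes are too few to tell this from the 11.1% of all tested genes. None had an unadjusted p under 0.05, and none passed in the voom fit. The smallest p-values belonged to the receptor gene crhr2 (ENSDARG00000103704, 3.11 and 0.817 TPM in PM2.5 larvae, against 4.17 and 3.80 TPM in controls, log2 fold change -0.87) and to hsd11b2, which inactivates cortisol (13.5 and 11.4 TPM in PM2.5 larvae, against 15.5 and 15.0 TPM in controls, -0.28). A second gene ID of crhr2, ENSDARG00000092918, was at 3.18 and 2.82 TPM in PM2.5 larvae, against 1.53 and 3.05 TPM in controls (0.32). Its groups overlapped. The steroid 11-beta-hydroxylase gene cyp11c1, at 3.30 and 3.76 TPM in exposed larvae and 4.02 and 5.49 TPM in controls, was named after its values were seen. The melanocortin receptor gene mc2r, which makes the interrenal gland respond to pituitary hormone, was at 0 in both exposed libraries and in control library 1, and at 0.1005 TPM in control library 2. Cortisol itself was not measured.

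Insulin and some of its downstream regulators were lower too. Of 29 tested insulin, glucagon and fasting regulators, 5 (17.2%) were lower, against 2.62% of all tested genes, and 1, cebpb, higher (median log2 fold change -0.02). The insulin gene ins fell to 3.76 and 3.71 TPM in PM2.5 larvae, against 11.1 and 11.8 TPM in controls, with a log2 fold change of -1.39 (SE 0.15, limma adjusted p = 0.00392). Both exposed libraries were at about the same level and far below both controls. In the exposed libraries ins was at a lower level than g6pca.1, and its counting error is not given here. Products of the FOXO transcription factor genes raise glucose production and fasting genes and are held back by insulin. Not all FOXO genes passed. Lower were foxo1a and foxo3b, with log2 fold changes of -0.61 and -0.42 (limma adjusted p = 0.0411 and 0.0263). Their relatives foxo1b and foxo3a did not pass (0.78 and -0.00024, limma adjusted p = 0.107 and 0.999). For foxo1b both exposed libraries were above both controls, and for foxo3a the groups overlapped.

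Besides irs2a, given above, the stress regulator gene atf4b was the other member past the threshold as lower (-0.32, limma adjusted p = 0.0181). Their relatives irs2b (-0.11, limma adjusted p = 0.565) and atf4a (0.05, 0.669) did not pass, and the groups overlapped for both. Both relatives were named after their values were seen. The coactivator gene ppargc1a, which drives pck1 and g6pc genes in mammals, had a log2 fold change of 0.01 (limma adjusted p = 0.984), and the glucagon genes gcga and gcgb had 0.19 and -0.42 without passing. These 3 were chosen after their values were seen. Without PM2.5 library 2 only 1 gene of this list passed, and without any other single library none.

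Around igfbp1a and igfbp1b, the insulin-like growth factor axis held 1 more gene past the threshold among 20 tested. The 3 genes past it, 5.00% of the 20 higher and 10.0% lower, stand beside 8.46% and 2.62% of all tested genes. The growth factor gene igf2a rose to 10.8 and 10.9 TPM in PM2.5 larvae, against 6.005 and 6.893 TPM in controls (log2 fold change 0.67, limma adjusted p = 0.0388). With no filter on low values 1 gene of this list passed and in the voom fit 7. Without PM2.5 library 2 it was 1, and without any other single library none. Around pdk2b, 1 more of 13 tested genes of the pyruvate dehydrogenase complex and its regulators passed, as higher (7.69%, near the 8.46% of all tested genes). The phosphatase gene pdp2, whose product reverses the kinases, rose to 5.68 and 6.88 TPM in exposed larvae, against 2.40 and 1.80 TPM in controls (1.23, limma adjusted p = 0.0195). Without any 1 of the 4 libraries 1 gene of this list passed.

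The kinase gene pdk4, a known fasting and glucocorticoid target, was at 14.5 and 16.0 TPM in exposed larvae and at 20.3 and 25.2 TPM in controls without passing (-0.54, limma adjusted p = 0.0616). The other tested kinase genes, pdk1 and pdk3a, did not pass either (-0.02 and 0.27), and were named after their values were seen. Hypoxia response genes were set beside igfbp1a because low oxygen is known to induce it in zebrafish. Of 16 tested, 1 (6.25%) was lower and none higher in limma (2 higher at an unadjusted p under 0.05 and 2 in the voom fit). The shares of all tested genes were 2.62% and 8.46%. The gene that fell was ndrg1b, at 63.3 and 69.6 TPM in exposed larvae, against 125 and 127 TPM in controls (-0.91, limma adjusted p = 0.00123).

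Some markers of organs that make glucose passed the test as well, and their part in the results above was not tested. Of 14 tested hepatocyte markers 5 (35.7%) were lower and 1 (7.14%) higher, against 2.62% and 8.46% of all tested genes. The list summed to 3142 to 3286 TPM in PM2.5 libraries, against 3560 to 3680 TPM in controls. The fatty acid binding protein gene fabp10a, a defining hepatocyte marker, was at 1163 and 1327 TPM in exposed larvae, against 1640 and 1493 TPM in controls (log2 fold change -0.33, limma adjusted p = 0.0393). The other 14 gene IDs of the list summed to 1959 to 1979 TPM in PM2.5 libraries, against 2040 to 2067 TPM in controls. Other members differed in direction: ttr passed as higher (0.37, limma adjusted p = 0.0189) and ahsg1 as lower (-1.52, 0.00115). Also lower were cp (-0.42, limma adjusted p = 0.0352), serpina1 (-0.35, 0.0122) and serpina1l (-0.39, 0.0103). Among those that did not pass, fga (0.19), fgb (0.06), rbp4 (0.06) and apoba (0.01) were above 0. Below 0 were ambp (-0.16), tfa (-0.12), vtnb (-0.03) and fgg (-0.02). The hepatocyte list had a median log2 fold change of -0.07, and 1 of its genes passed without any 1 of the 4 libraries.

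Enterocyte markers, for cells of the gut that also express pck1 in mammals, were 4 lower (33.3%) and 2 higher (16.7%) of 12. The shares of all tested genes were 2.62% and 8.46%. The enterocyte markers summed to 4391 to 4442 TPM in PM2.5 libraries against 4027 to 4096 TPM in controls. The higher sum rested on apoa1a: without it the other 11 summed to 1659 to 1746 TPM in PM2.5 libraries against 1855 to 1875 TPM in controls. The 6 past the threshold were 3 without PM2.5 library 1 and 2 without control library 1 or 2. Of 12 markers of the proximal tubule of the larval kidney 1 (8.33%) was lower, against 2.62% of all tested genes, and none higher (0 higher at an unadjusted p under 0.05 and 1 in the voom fit). They summed to 196 to 200.5 TPM in PM2.5 libraries against 231 to 235 TPM in controls. The marker that passed, agxtb, was also the most abundant, and its call was lost without any 1 of the 4 libraries. Without agxtb the other 11 summed to 120.5 to 121.3 TPM in PM2.5 libraries against 129.1 to 130.6 TPM in controls. The median log2 fold change of the tubule list was 0.08, near the 0.07 of all tested genes. Skeletal muscle markers were lower in 10 of 12 (83.3%), against 2.62% of all tested genes, and higher in none (0 also at an unadjusted p under 0.05 and in the voom fit). Their sums were 83959 to 87228 TPM in PM2.5 libraries against 100217 to 102115 TPM in controls. After TMM-type rescaling 6 muscle markers passed, all lower, and 3 to 7 did without 1 library (3 without control library 1, 4 without control library 2, 6 without PM2.5 library 1). Of 8 interrenal markers 4 were tested and none passed in limma, at an unadjusted p under 0.05 or in the voom fit, and they summed to 15.2 to 15.3 TPM in PM2.5 libraries against 15.0 to 16.3 TPM in controls.

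For the 3 genes with the largest changes past the threshold, the most similar profiles were sought as the smallest Euclidean distance between log2(TPM + 1) values centred over the 4 libraries, among 20787 tested genes with a symbol. Nearest to pdk2b were the AP-1 gene junbb (54.8 and 49.7 TPM in PM2.5 larvae, against 132 and 130 TPM in controls, distance 0.0956), the skin keratin gene krt4 (1950 and 1978 TPM in PM2.5 larvae, against 5025 and 4904 TPM in controls, 0.0987) and the heat shock gene hsp70.1 (0.497 and 0.314 TPM in PM2.5 larvae, against 2.22 and 2.43 TPM in controls, 0.111). Nearest to g6pca.2 were adamtsl3, gab2 and slc25a23a (distances 0.0376, 0.0376 and 0.0554). Nearest to igfbp1b were pou4f3, CABZ01081777.1 and sobpa (0.0350, 0.0377 and 0.0401). The added 1 TPM understates changes of low genes, among them hsp70.1, adamtsl3 (1.07 to 2.76 TPM) and CABZ01081777.1 (0.536 to 1.84 TPM). Their likeness therefore depends on it. With 4 libraries many genes share a profile, and the likeness is a description only.

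**Figure D5:**
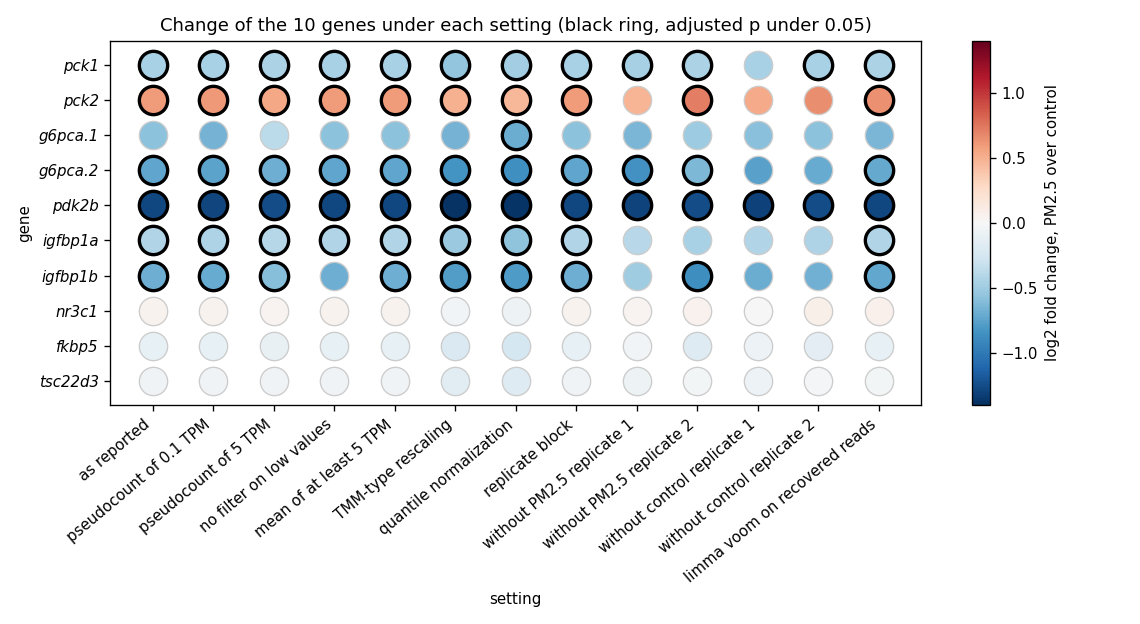
Log2 fold change of the 10 genes (rows, colour scale) under each setting (columns); a black ring marks an adjusted p under 0.05. The ring holds in every column for pdk2b (-1.38 to -1.25), is lost in single-library columns for the other 5 genes past the threshold, is held by g6pca.1 with quantile normalization alone, and is in no column for nr3c1, fkbp5 and tsc22d3.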

How the data were processed

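Per the labels' protocols, sequencing gave paired reads of 150 bases from RNA whose integrity number exceeded 7.8; the labels name more than 1 extraction kit and sequencer. The authors deposited 1 table of TPM. Per the submitters' processing notes, cutadapt 1.18, STAR 2.6.1c and the build GRCz11 were used; for counting program, annotation and strand setting: not given in the sources used here. Of 32925 rows, 405 repeated a gene ID with the same TPM and were used once.

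Genes averaging 1 TPM or more were tested on log2(TPM + 1), which understates changes of low genes, with limma 3.58.1 in R 4.3.3 (1 term for the group, trended eBayes, two-sided tests, Benjamini-Hochberg threshold 0.05). The fit was tested on simulated data with independent noise in each library, which cannot cover a shared clutch, exposure or batch. A gene's TPM are whole multiples of the worth of 1 read. Read numbers within 0.02 of whole fitted 25330 of 25331 genes above 0 in at least 2 libraries, up to a factor common to a gene's libraries; errors from them cover counting only. A limma voom fit on them, and marker sums without the most abundant marker, were chosen after seeing the data.

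The members and the 13 further gene lists were chosen with earlier results of these data known. Of 231 list entries 5 found no match. Named genes are the members, the genes past the threshold in each pathway list (otherwise the 2 smallest p), the 3 nearest profiles of 3 members, and others chosen after their values were seen. These others are those the text says so of, and mdh1aa, fbp1a, nr3c2, mc2r, igfbp3, pdk4, foxo1b, foxo3a, apoa1a and agxtb. They also include fabp10a with the other hepatocyte markers, and the second gene IDs of slc37a4b and crhr2. The result of 1 gene past the threshold is not reported here. No sequences were used, so the planned promoter motif search was not run. Alternatives changed the pseudocount, filter, scaling, replicate block and libraries.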

Additional observations from a re-analysis of the deposited data

How the results depend on the processing

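Of the 10 genes, 6 passed with pseudocounts of 0.1 and 5 TPM, a mean of at least 5 TPM, TMM-type rescaling and the voom fit, 5 with no filter and 7 after quantile normalization. Leaving out 1 library gave 1 to 5 of the 10 genes, 11 to 28 of the pathway and marker genes (51 of 191 with all libraries) and 377 to 857 of all genes (2313 with all libraries). The voom fit called 3705 genes in all. The sign of nr3c1 turned after TMM-type rescaling (-0.052) and quantile normalization (-0.067); the cause was not tested. The other 9 genes kept their sign in all 12 alternatives. Same-numbered libraries deviated together with a correlation of 0.07 across genes. That value cannot show whether they share a clutch, exposure or batch. With the replicate block 6 of the 10 genes, 56 of the pathway and marker genes and 2853 of all genes passed. The difference in log2 ratio kept its sign in the 4 related pairs with both other pseudocounts, and for g6pca.1 to g6pca.2 it ranged from 0.09 to 0.32. Depth limits g6pca.1 most, with 54 to 115 reads per library, and 2 libraries per group limit every single-gene call.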
